A study of Rattus norvegicus with 5 samples.

Results

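The genes described here encode the matrix metalloproteinases (MMPs), the ADAMTS proteases, the ADAMTS-like proteins and the tissue inhibitors of metalloproteinases (TIMPs). They were chosen by symbol alone, as every Mmp, Timp1 to Timp4, Adamts and Adamtsl gene of the combined table, which gave 51 members of 33014 genes. These are 4 TIMP, 23 MMP, 19 ADAMTS and 5 ADAMTS-like genes. The data were 5 RNA-seq libraries (replicates 1 to 5) of dissociated dorsal root ganglia, the sensory ganglia beside the spinal cord, from wild-type Sprague Dawley rats of postnatal day 10. The ganglia of 1 litter of 10 pups were dissociated with collagenase and dispase, cells were plated at 5000 per well, all wells received PBS after 1 day, and RNA was taken after 8 days from 3 pooled wells per library. All libraries belong to 1 group, so the comparisons are between genes within libraries. The labels do not say that replicates came from separate preparations, so their spread may be technical.

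MMPs are zinc-dependent proteases that cut collagens, laminins, proteoglycans, growth factors and receptors. Most are secreted as inactive proenzymes, and the membrane-type members stay at the cell surface. ADAMTS proteases are secreted, carry thrombospondin repeats and cut proteoglycans such as aggrecan and versican, procollagens or von Willebrand factor, while ADAMTS-like proteins have the repeats without a protease domain. TIMPs bind the active site of these enzymes. In rodents, MMP9 and MMP2 in ganglia are known from work on neuropathic pain after nerve injury, and the family takes part in Wallerian degeneration and remyelination.

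A block of 10 MMP genes lies side by side on chromosome 8, with pseudogenes as the only other annotated genes between them, in the order Mmp13, Mmp12, Mmp1b, Mmp3, Mmp1, Mmp10, Mmp8, Mmp27, Mmp20 and Mmp7 in the RefSeq table of assembly GRCr8. Of these 10 genes 3 were detected in the cultures, against 12 of the 13 MMP genes elsewhere and 41.3% of all genes. The count in the block is thus not far from the share over all genes. Their promoters are shown because most of the block carries an element that no other matched member has, in detected and undetected genes alike. The promoters of Timp2 and Timp3, which hold a GC box, are given for contrast. Below are the 100 bases before the annotated start, 5′ to 3′ on the strand of the gene, from RefSeq (GRCr8). Capitals mark TGANTCA, where N is any base. This pattern is its own reverse complement and includes the letters of the AP-1 element (TGACTCA or TGAGTCA). Capitals also mark TATAAA, the TATA box, and GGGCGG, the GC box, each on either strand. In Mmp20, not printed, the match in this window read TGAATCA, which is in the pattern but is not among those AP-1 letters. The same window of Timp1 (631 TPM) and of Timp4 (1.19 TPM), not printed, held none of these elements.
Mmp13 (chr8:12782729-12782828, + strand): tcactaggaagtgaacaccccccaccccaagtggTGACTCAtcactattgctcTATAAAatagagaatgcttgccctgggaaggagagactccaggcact
Mmp12 (chr8:12866552-12866651, + strand): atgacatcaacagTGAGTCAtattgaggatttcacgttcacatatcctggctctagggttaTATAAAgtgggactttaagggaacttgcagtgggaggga
Mmp8 (chr8:13008790-13008889, + strand): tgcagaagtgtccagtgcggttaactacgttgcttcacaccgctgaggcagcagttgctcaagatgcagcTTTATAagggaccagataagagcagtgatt
Mmp3 (chr8:12925181-12925280, + strand): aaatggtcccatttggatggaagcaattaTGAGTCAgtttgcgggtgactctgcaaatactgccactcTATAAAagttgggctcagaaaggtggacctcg
Mmp10 (chr8:12974607-12974706, + strand): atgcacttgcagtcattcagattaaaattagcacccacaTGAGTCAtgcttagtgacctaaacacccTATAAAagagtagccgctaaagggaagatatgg
Mmp7 (chr8:13132943-13133042, + strand): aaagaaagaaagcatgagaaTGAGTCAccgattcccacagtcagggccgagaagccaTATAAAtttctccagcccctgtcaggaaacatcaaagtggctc
Mmp27 (chr8:13030652-13030751, + strand): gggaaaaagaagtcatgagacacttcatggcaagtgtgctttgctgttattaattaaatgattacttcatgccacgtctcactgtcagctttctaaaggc
Timp2 (chr10:104089215-104089314, - strand): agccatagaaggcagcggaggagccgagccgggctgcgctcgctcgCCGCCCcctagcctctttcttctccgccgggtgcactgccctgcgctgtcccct
Timp3 (chr7:19459559-19459658, - strand): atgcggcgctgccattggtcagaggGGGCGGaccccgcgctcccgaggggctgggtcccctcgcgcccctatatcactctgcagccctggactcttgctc

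RefSeq promoters of 300 bases (250 before and 50 after the start) were matched for 40 of the 51 members. The 11 members without a match, Mmp2 and Mmp14 among them, all lie outside the block. The counts for members outside the block leave them out, so whether they carry these elements is not known. TGANTCA was found in 7 of the 10 block genes (70%) and in 0 of the 30 other matched members, against 8.04% of the 27457 genes in the promoter table. TATAAA was found in 8 of 10 block genes (80%), in 6 of the 30 others (20%) and in 15.3% of all genes. GGGCGG had the opposite pattern, with 0 of 10 block genes, 20 of the 30 others (66.7%) and 36% of all genes. The median GC content was 43.7% in the block, 65.8% in the other members and 52.3% over all genes. Within the block, TGANTCA was in 2 of 3 detected and 5 of 7 undetected genes, and TATAAA in 3 of 3 detected and 5 of 7 undetected genes. Outside the block, GGGCGG was in 19 of 23 detected members (82.6%) and 1 of 7 undetected members (14.3%). The median GC content of these sets also differed, at 68.7% and 53.3%. The split by detection was not made over all genes, so whether it is particular to this family was not tested. A match is a description of the sequence and not a binding site.

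A member was called detected at a level of at least 1 TPM (a relative abundance that is scaled to the library and corrected for transcript length) in every library. This held for 35 of 51 members (68.6%), against 41.3% of all genes in the table. By class, 3 of 4 TIMP, 15 of 23 MMP, 13 of 19 ADAMTS and 4 of 5 ADAMTS-like genes were detected. The median level of the detected members was 12.5 TPM, below the 20.5 TPM of all detected genes, and 14 of the 35 lay above that median. The family was therefore widely detected, with a few members at high levels and most at low ones. In the order of mean levels, 10 of the 34 neighbouring pairs of detected members had ranges over the libraries that did not overlap, most of them among the highest genes, and 24 overlapped.

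**Figure D1:**
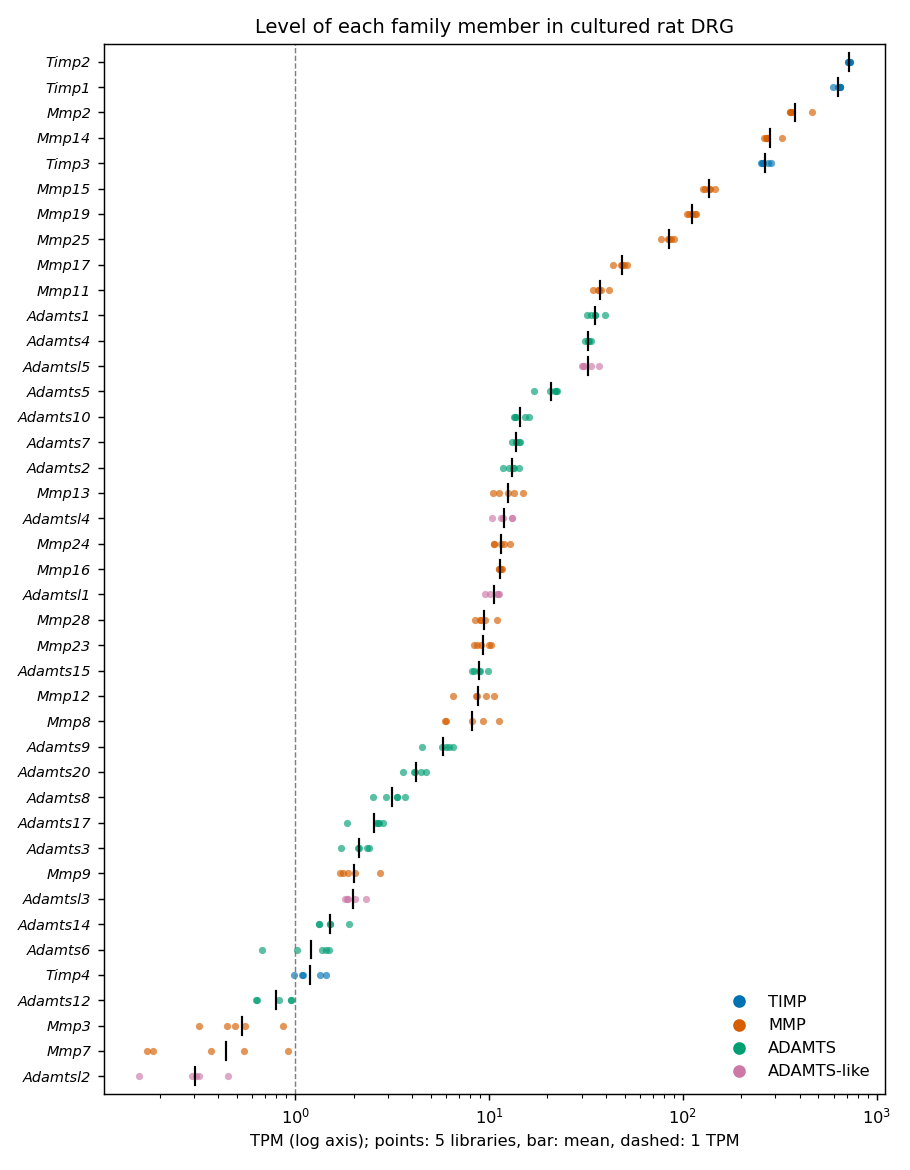
TPM on a log axis for the 41 members with a mean of at least 0.3 TPM, with 1 point per library, a bar for the mean and a dashed line at 1 TPM. Timp2 and Timp1 lead, Mmp2, Mmp14 and Timp3 follow, and neighbouring genes between about 9 and 15 TPM overlap.

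Inhibitors outweighed proteases in summed level. The TIMP genes summed to 1616 ± 27.4 TPM (SD, n = 5), the MMP genes to 1152 ± 66.8 TPM, the ADAMTS genes to 160.1 ± 2.08 TPM and the ADAMTS-like genes to 57.3 ± 3.06 TPM. These were 54.1%, 38.6%, 5.36% and 1.92% of the family's summed TPM. The TIMP sum lay above the MMP sum by 1.40-fold, a log2 ratio of 0.49 ± 0.10, in 5 of 5 libraries. This ratio was 0.32 in replicate 1, apart from the 0.51 to 0.55 of the other libraries. The MMP sum lay above the ADAMTS sum by 7.19-fold (log2 2.85 ± 0.09), and the ADAMTS sum above the ADAMTS-like sum by 2.8-fold (log2 1.49 ± 0.08). Sums depend on the number of members: with the median of detected members in their place, the last ratio turned to -0.35. Timp1, Timp2, Timp3, Mmp2 and Mmp14 together held 76.2% ± 0.650 of the family's TPM.

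Ratios between genes were tested over libraries with the exact two-sided sign-flip test, whose smallest possible p with 5 libraries is 0.0625, so no ratio could pass 0.05. All 3 class ratios and 17 of the 18 gene pairs had the same direction in every library and reached that smallest p (0.0662 after Benjamini-Hochberg adjustment over the pairs). The exception was Adamts1 over Adamts4, with an exact p of 0.125. Ratios below are therefore given with their SD over libraries, as log2 of TPM + 0.1.

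**Figure D2:**
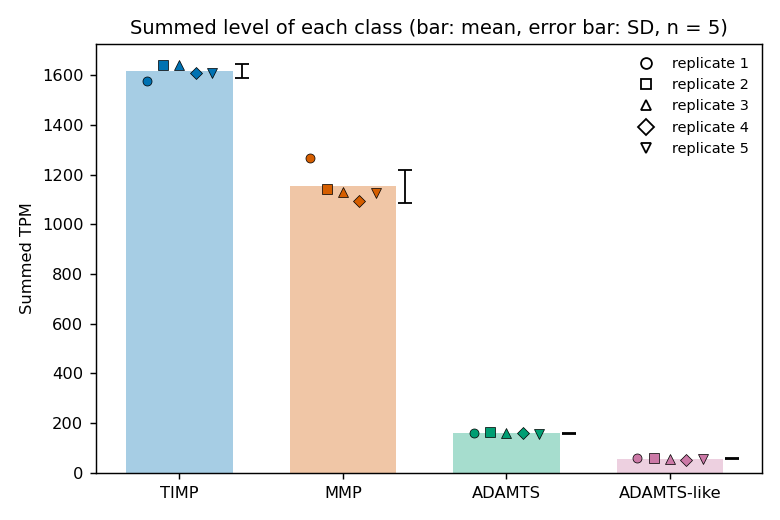
Summed TPM of each class (bars: mean; error bars: SD; n = 5), with 1 symbol per library. The TIMP sum is above the MMP sum in every library, and replicate 1 has the highest MMP sum (1268 TPM) and the lowest TIMP sum (1578 TPM).

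Among the inhibitors, Timp2 and Timp1 were the 2 highest genes of the family, Timp3 was high and Timp4 was close to the detection limit. Timp2, which inhibits most MMPs and also joins Mmp14 in activating the proenzyme of Mmp2, had 726, 728, 722, 707 and 708 TPM in replicates 1 to 5. Its libraries lay close together, and its mean of 718 ± 9.77 TPM ranked at 192 among all genes. Timp1, an inhibitor that is often induced after injury, had 592, 629, 645, 645 and 645 TPM. Its range did not overlap that of Timp2, and replicate 1 was its lowest library. Timp2 exceeded Timp1 by 1.14-fold (log2 0.19 ± 0.07, n = 5).

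Timp3, which binds to the matrix and also inhibits several ADAMTS and ADAM proteases, had 259, 285, 275, 254 and 256 TPM. It lay below Timp1 in every library, at a log2 ratio of -1.25 ± 0.09, and Timp2 exceeded it by 2.71-fold (log2 1.44 ± 0.06). Its level rests on transcripts that the newer RefSeq table does not name, since its 1 named transcript held 1.08 TPM of the 266 TPM. Timp4, the inhibitor known from heart and brain, had 1.44, 1.10, 1.08, 1.35 and 0.989 TPM, and replicate 5 alone put it under the detection limit. Timp3 exceeded it by 207-fold in the combined table (log2 7.70 ± 0.25). With named transcripts alone, which leave out nearly all of Timp3, that ratio turned to -0.41.

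Timp1, Timp3 and Timp4 are each nested inside a synapsin gene in the GRCr8 table. Their hosts encode synaptic vesicle proteins of neurons. Host levels were 15.7 ± 0.572 TPM for Syn1 (with Timp1), 5.29 ± 0.477 TPM for Syn3 (with Timp3) and 45.1 ± 1.93 TPM for Syn2 (with Timp4). The order of the inhibitors thus did not follow the order of their hosts: the host of highest level held the inhibitor of lowest level. Timp4 is uncertain for this reason, because the strand setting of the counting is not known and its host exceeded it.

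Of the gelatinases, which cut denatured collagen and the type IV collagen of basement membranes, Mmp2 was high and Mmp9 was low. Mmp2 had 461, 357, 367, 363 and 357 TPM. Replicate 1 stood apart, at 1.28 times the mean of the other libraries, which lay within a narrow range. Mmp9 had 1.77, 1.87, 2.03, 1.69 and 2.73 TPM, backed by 73 to 99 estimated reads per library, and replicate 5 was the highest. Mmp2 exceeded Mmp9 by 182-fold (log2 7.51 ± 0.35).

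All 6 membrane-type MMP genes were detected, and together they held 49.6% ± 1.28 of the MMP sum. Mmp14 (MT1-MMP), a collagenase at the cell surface that activates the proenzyme of Mmp2, had 326, 269.7, 271, 262 and 271 TPM. As for Mmp2, replicate 1 stood apart, at 1.22 times the mean of the others. Mmp2 exceeded Mmp14 by 1.36-fold with little spread (log2 0.44 ± 0.04), and replicate 1 was highest for both. Timp2 exceeded Mmp2 by 1.89-fold (log2 0.92 ± 0.15) and Mmp14 by 2.57-fold (log2 1.36 ± 0.12). Both of these ratios were smallest in replicate 1, at 0.65 and 1.15. Mmp14 and Timp3 had overlapping ranges and did not separate.

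Mmp15 (MT2-MMP) had 127, 146, 137, 129.9 and 138 TPM, without a library apart. Mmp14 exceeded it by 2.06-fold (log2 1.04 ± 0.18), and it exceeded Mmp16 (MT3-MMP) by 11.8-fold (log2 3.56 ± 0.06). Mmp16 had 11.3, 11.7, 11.5, 11.2 and 11.3 TPM and was among the steadiest members. The members anchored by a lipid tail (GPI) were between these: Mmp25 (MT6-MMP), known from leukocytes, had 76.7, 90.1, 87.1, 84.8 and 83.9 TPM, and Mmp17 (MT4-MMP) had 49.9, 51.3, 48.3, 43.5 and 48.2 TPM. For Mmp25 the named transcript held only 14.7 of the 84.5 TPM, so its level depends on unnamed transcripts. Mmp24 (MT5-MMP), known from neurons, had 10.7, 12.8, 10.6, 12 and 11.5 TPM. It overlaps Mmp24os, a gene at 42.4 ± 1.81 TPM, and its level is uncertain without the strand setting.

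Among the MMPs outside both the chromosome 8 block and the membrane-type group, Mmp19 was second to Mmp2. Mmp19, a widely expressed enzyme that cuts basement membrane proteins, had 117, 115, 108, 104 and 112 TPM, below Mmp15 and above Mmp25 in every library. Mmp11 (stromelysin-3), which furin activates inside the cell, had 41.5, 37.9, 36.6, 34.6 and 36.8 TPM. It overlaps Chchd10 (132 ± 14.1 TPM), so it too is uncertain. Mmp28 (epilysin) and Mmp23 averaged 9.43 ± 0.970 and 9.30 ± 0.799 TPM, which overlapped. Mmp21 was not detected, with 1 estimated read over all libraries.

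Within the chromosome 8 block, Mmp13, Mmp12 and Mmp8 were detected and the genes between them were at or near 0. The block summed to 30.5 ± 4.80 TPM, or 2.66% ± 0.494 of the MMP sum. Mmp13 (collagenase 3) had 13.5, 11.2, 12.5, 10.5 and 14.9 TPM, with replicate 5 highest. Mmp12, the metalloelastase of macrophages, had 6.51, 8.53, 8.70, 9.60 and 10.6 TPM, lowest in replicate 1 and highest in replicate 5. Mmp9 lay below it in every library (log2 -2.07 ± 0.23). Mmp8 (neutrophil collagenase), named after its values were seen, had 5.95, 6.01, 9.35, 8.16 and 11.2 TPM. Replicates 1 and 2 were low and replicate 5 was high.

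The undetected members of the block included both stromelysins in it. Mmp3 (stromelysin-1) had 0.553, 0.445, 0.317, 0.491 and 0.862 TPM from 61 estimated reads in all, and Mmp2 exceeded it by 622-fold (log2 9.28 ± 0.46). Mmp7 (matrilysin) averaged 0.437 ± 0.309 TPM, and Mmp10 (stromelysin-2) had 2 estimated reads in all. Mmp1 and Mmp1b (interstitial collagenases), Mmp20 (the enamel enzyme) and Mmp27 had 0 reads. With 3 reads over the 5 libraries as the limit, that allows up to 0.0231, 0.0338, 0.0132 and 0.0300 TPM. These limits cover counting error only. They lie far under the 8.14 to 12.5 TPM of the detected members of the block.

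**Figure D3:**
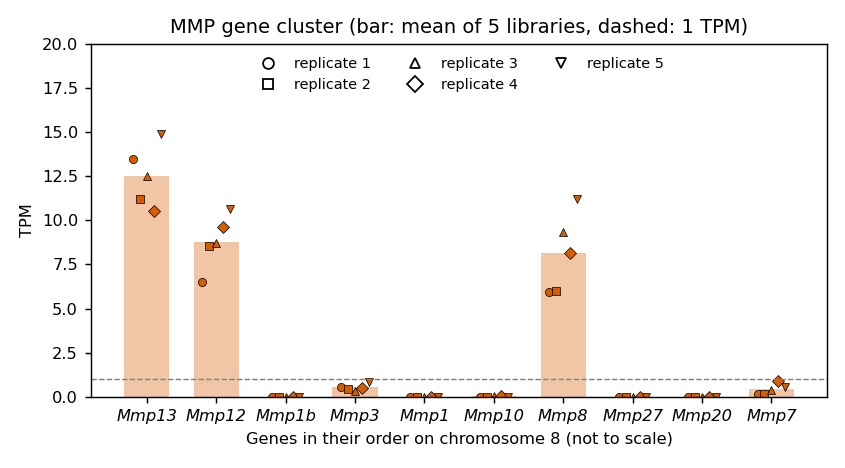
TPM of the 10 MMP genes of the chromosome 8 block in gene order, not to scale (bars: mean of 5 libraries; symbols: libraries; dashed line: 1 TPM). Mmp13, Mmp12 and Mmp8 stand at 12.5, 8.80 and 8.14 TPM, and the other 7 genes are under 1 TPM.

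All 7 ADAMTS genes that cut proteoglycans were detected, and they held 68.9% ± 0.996 of the ADAMTS sum. Adamts1 had 39.5, 33.5, 35.1, 35.4 and 32 TPM, and Adamts4, an aggrecanase, had 33.5, 32.3, 32.3, 31.4 and 32.8 TPM. The 2 genes did not separate: Adamts1 was higher in 4 of 5 libraries, by 1.08-fold (log2 0.11 ± 0.11, exact p = 0.125). The level of Adamts4 is uncertain without the strand setting. Adamts5, the other main aggrecanase, had 17.0, 22.0, 21.9, 22.5 and 20.7 TPM, with replicate 1 lowest. Adamts1 exceeded Adamts5 by 1.69-fold (log2 0.75 ± 0.26), and the 2 are neighbouring protein-coding genes in the GRCr8 table.

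Adamts9, which cuts versican, had 4.5, 6.19, 5.71, 6.01 and 6.5 TPM, again lowest in replicate 1, and Adamts1 exceeded it by 6.02-fold (log2 2.59 ± 0.31). Adamts15 averaged 8.83 ± 0.664, Adamts20 4.20 ± 0.423 and Adamts8 3.16 ± 0.456 TPM. Adamts8 has no named transcript, and named transcripts held only 1.42 TPM of Adamts20, so both levels depend on unnamed transcripts. The substrates of these enzymes were measured as well, and aggrecan itself was not detected. Acan was at 0.109 ± 0.0214 TPM, while Vcan (versican) was at 20.7 ± 1.92, Ncan (neurocan) at 12.1 ± 1.13 and Bcan (brevican) at 6.25 ± 0.560 TPM.

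The 3 procollagen N-proteinases, which trim fibrillar procollagens, were detected, led by Adamts2. It had 13.4, 14.2, 12.7, 11.8 and 13.3 TPM. Adamts3 had 1.71, 2.11, 2.41, 2.14 and 2.34 TPM, and Adamts2 exceeded it by 5.90-fold (log2 2.56 ± 0.23). Neither has a named transcript, so both levels come from the combined table alone. Adamts14 averaged 1.51 ± 0.234 TPM.

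Of the 9 other ADAMTS genes, 3 were detected. Adamts10, linked to fibrillin, had 16.1, 15.4, 13.5, 13.8 and 13.7 TPM, and Adamts7, which cuts COMP, had 13.1, 14.4, 13.7, 13.8 and 14.3 TPM; their ranges overlapped. Adamts17, given in full after its values were seen, had 1.86, 2.84, 2.62, 2.71 and 2.66 TPM, with replicate 1 apart on the low side. Adamts6, a relative of Adamts10, had 1.38, 1.45, 0.674, 1.5 and 1.02 TPM and missed detection through replicate 3 alone. Adamts10 exceeded it by 11.5-fold (log2 3.53 ± 0.38). Adamts12 averaged 0.798 ± 0.161 TPM. Adamts13, the von Willebrand factor protease made mainly by liver stellate cells, was at 0.050 ± 0.0460 TPM, and Adamts16, Adamts18 and Adamts19 were below 0.06 TPM on average.

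Adamtsl5 led the ADAMTS-like genes with 36.8, 33.6, 30.9, 30.4 and 30.3 TPM, at the level of Adamts4, whose range it overlapped. Adamtsl4, which binds fibrillin microfibrils, had 10.4, 13.1, 11.6, 11.7 and 13.2 TPM. Adamtsl1 had 11.1, 11.2, 10.2, 9.53 and 11 TPM, and Adamtsl3 had 1.85, 2.03, 1.87, 1.80 and 2.33 TPM. The first of these exceeded the second by 5.16-fold (log2 2.37 ± 0.12). Adamtsl2, a TGF-beta regulator, was not detected, at 0.304 ± 0.103 TPM.

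Transcript models add detail for 48 members, which had 149 named transcripts in all; 27 of these genes had at least 2. Timp2 was split nearly evenly between a model of 1661 bases (361 ± 6.66 TPM) and one of 3368 bases (357 ± 7.52 TPM), with 50.3% ± 0.713 for the shorter. Timp1 was carried by models of 740 bases (56.1% ± 1.46) and 884 bases (39.6% ± 1.40), and both shares varied little between libraries. Mmp19 was led by a model of 2003 bases, with 64.5% ± 3.62, and Mmp16 by one of 11413 bases, with 82.7% ± 2.25. Mmp8 differed from these. A RefSeq model classed as non-coding RNA, 1415 bases long, held 68.5% ± 7.49 of its TPM, and the protein-coding model of 1401 bases held 31.5%. In replicates 1 to 5 the coding model had 1.57, 1.49, 2.78, 2.71 and 4.90 TPM. Most of the Mmp8 level was therefore assigned to a model without a protein product.

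**Figure D4:**
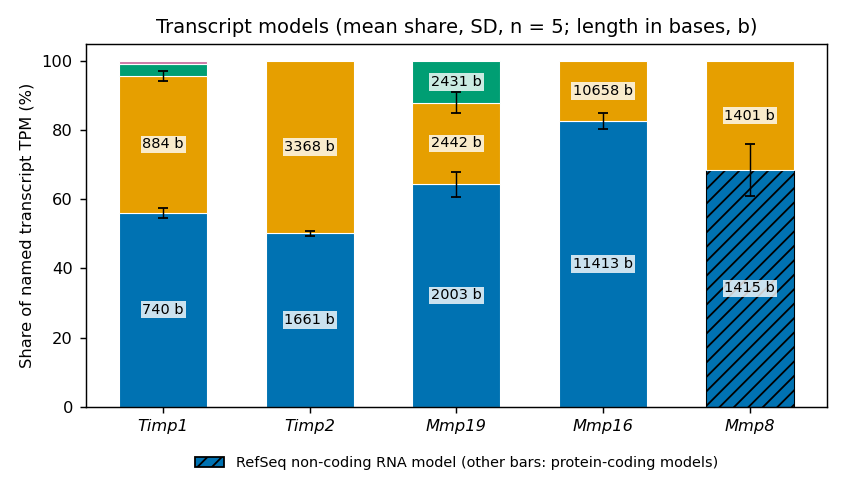
Share of each named transcript model in the gene's named TPM for 5 members (mean; error bars: SD of the share of the segment below; n = 5), labelled with model length in bases (b). Timp2 is divided evenly between 2 models, and the hatched non-coding model holds most of Mmp8.

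Libraries held between 21596608 and 27913098 estimated reads, and 1 TPM of a transcript of 1 kb effective length stood for 13.3 to 17.4 reads. Of the 44 cell type markers examined, all 5 neuronal, 5 Schwann cell, 3 satellite glia, 5 fibroblast and 5 macrophage genes were detected, so RNA of several cell types was present. Only 1 of 4 endothelial, 3 of 4 mural and smooth muscle, 1 of 4 neutrophil, 2 of 5 cartilage and bone and 0 of 4 lymphocyte genes were. The libraries pool all cells of the wells, so the cell type that made a transcript was not measured, and fewer cells of a type cannot be told apart from less RNA per cell.

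Spread between libraries was larger for the members than for genes at large. The per-gene biological coefficient of variation (BCV), estimated with edgeR, had a median of 0.0736 over the 28 members fitted, against 0.0399 over 8871 genes. It exceeded the trend for genes of similar level in 18 of the 28 members (64.3%) and in 30.4% of all genes. Without replicate 1 the medians were 0.0435 and 0.0341, so this library decides much of the difference. Mmp8 (0.240), Adamts6 (0.20), Adamts12 (0.175) and Mmp12 (0.153) varied most, and Mmp16 (0.00988), Adamts4 (0.0180) and Timp2 (0.0225) least.

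Replicate 1 stood apart from the other libraries for Mmp2, Mmp14 and Adamts17, by the gap to the nearest library relative to the whole range. These were 3 of 35 detected members (8.57%), against 5.58% of all detected genes, so the count is close to the background. Among all detected genes that had such a library, it was replicate 1 in 37.8%. Of the 35 detected members, 9 were at their highest in that replicate, among them Mmp2, Mmp14, Mmp11 and Adamts1. Another 14 were at their lowest there, among them Timp1, Mmp15, Mmp12, Mmp8, Adamts5, Adamts9 and Adamts17. Replicate 2 was highest for 14 members and replicate 4 lowest for 13, so replicate 1 was not alone in this. The 5 fibroblast markers summed to between 1310.1 and 1344 TPM, but single markers went different ways: Dcn (365 TPM, against 307 to 338) and Pdgfra (26.4 TPM, against 19.5 to 22.1) were highest in replicate 1, and Col1a1 and Col1a2 were lowest there. Of the 4 mural and smooth muscle markers, whose sum was 368 TPM in replicate 1 and 203 to 349 TPM elsewhere, Acta2 and Tagln were highest in replicate 1 and Pdgfrb was lowest (33.3 TPM, against 35.8 to 39.1). The 5 Schwann cell markers had their lowest sum in replicate 1, at 5296 TPM against 5833 to 6068 TPM, with Mbp (myelin basic protein) at 622 TPM against 873 to 1004 TPM. The part of these cell types in the levels of Mmp2 and Mmp14 was not tested.

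Of the 35 detected members, 7 were highest in replicate 5. These were Mmp8, Mmp12, Mmp13, Mmp9, Adamts9, Adamtsl4 and Adamtsl3. The 5 macrophage markers summed to 773, 591, 904, 870.0 and 933 TPM in replicates 1 to 5, also highest in replicate 5 but lowest in replicate 2, where neither Mmp12 nor Mmp9 was lowest. The 4 neutrophil markers summed to between 2.09 TPM in replicate 1 and 7.56 TPM in replicate 5. Of these, S100a8 was detected, at 3.25 ± 1.73 TPM, and like Mmp8 was highest in replicate 5, at 6.28 TPM. S100a9 was also highest there, at 1.28 TPM, Mpo averaged 0.00672 TPM and Elane was at 0 in every library. The 5 cartilage and bone markers summed to between 12.4 TPM in replicate 1 and 26.4 TPM in replicate 5, but single markers went different ways. Only Sost was highest in replicate 5, at 16.1 TPM. Col2a1 (13.6 TPM) and Matn3 were highest in replicate 4, Bglap in replicate 3 and Dmp1 in replicate 2. Mmp13 had 13.5 TPM in replicate 1, where the sum of these markers was lowest, and 14.9 TPM in replicate 5. The part of macrophages, neutrophils and cartilage or bone cells in the levels of Mmp8, Mmp12, Mmp13 and Mmp9 was not tested.

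**Figure D5:**
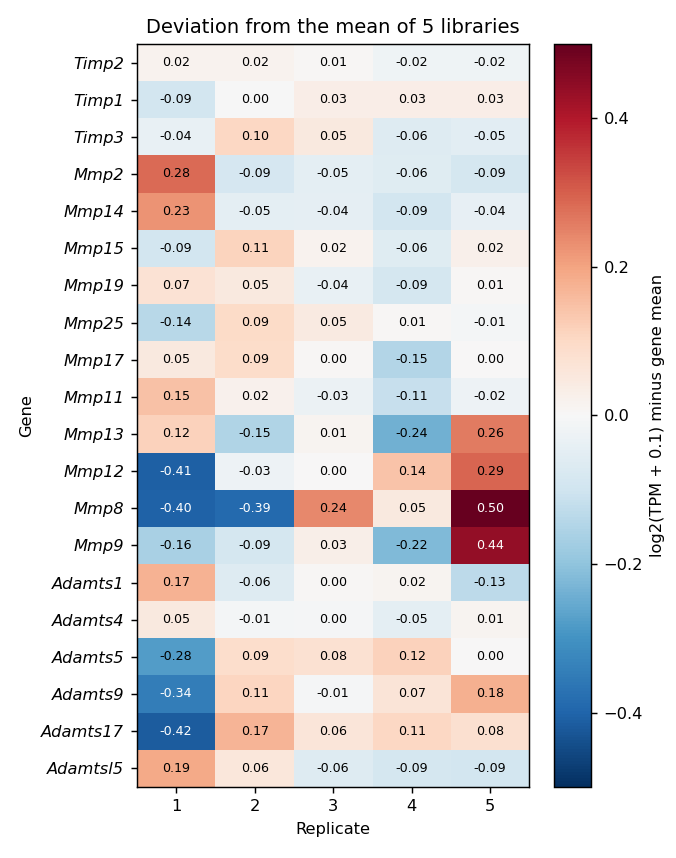
Deviation of log2(TPM + 0.1) from the gene's mean over 5 libraries for 20 members chosen after their values were seen (columns: replicates; colour and number: deviation). Replicate 1 is high for Mmp2 (0.28) and Mmp14 (0.23) and low for Adamts17 (-0.42), and replicate 5 is high for Mmp8 (0.50) and Mmp9 (0.44).

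A list of 35 genes around the family covered the plasminogen system, convertases, other inhibitors, ADAM proteases, surface partners and matrix substrates. Of these, 30 were detected, against 41.3% of all genes. In the plasminogen system, which activates several MMPs, Plat (tissue plasminogen activator) was at 572 ± 20.1 TPM, its inhibitor Serpine2 at 445 ± 14.1 and the urokinase receptor gene Plaur at 59.4 ± 2.35 TPM. Plg, the plasminogen gene, was not detected at 0.301 ± 0.0954 TPM, nor were Serpinb2 (0.406 ± 0.222 TPM) and Serpinf2 (0.999 ± 0.357 TPM). The activator was thus among the highest genes of the list and its main substrate was below the detection limit.

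All 4 convertases, which remove the propeptide of membrane-type MMPs and ADAMTS proteases, were detected, led by Furin at 41.2 ± 1.98, Pcsk7 at 20.9 ± 0.827 and Pcsk6 at 6.31 ± 0.492 TPM. The other inhibitors A2m, a protease trap, Reck, a membrane-anchored MMP inhibitor, and Tfpi2 stood at 108 ± 12.1, 24.1 ± 1.88 and 2.02 ± 0.394 TPM. Of 8 ADAM proteases 7 were detected, with the sheddase Adam10 at 114 ± 2.99, Adam17 at 71.5 ± 2.02 and Adam9 at 71.3 ± 1.81 TPM. Adam33 was not, at 1.07 ± 0.0996 TPM. All 5 surface partners were detected. Cd63, a TIMP1 receptor component, and Bsg (EMMPRIN, an MMP inducer) had the highest levels of the list, at 3185 ± 94.7 and 1012 ± 54.9 TPM, and the hyaluronan receptor Cd44 was at 254 ± 10.4 TPM. Among matrix substrates, Dcn (decorin) led at 334 ± 20.9 TPM, followed by Tnc (tenascin C) at 95.4 ± 9.23 TPM and Vcan. Acan was the 1 substrate of 7 that was not detected.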

How the data were processed

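Libraries were poly-A selected. Build mRatBN7.2 and the programs Salmon 1.5.1, cutadapt 2.8 and Trim Galore 0.6.6 are named per the submitters' processing notes, without order or options. Whether counting used strand, and which annotation release, is not given in the sources used here. Gene-level TPM for 33014 symbols was deposited by the authors, with, per library, TPM and an expected count of reads for 98811 transcripts, per the file headers.

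Members and lists were chosen with earlier results of these data known. Gene TPM was the source of levels. Transcripts were named through the RefSeq table of GRCr8 (68.1% matched); only promoter coordinates are printed, in that build. Expected counts of the 19270 genes whose named transcripts came within 10% of gene TPM in every library were rounded and fitted with edgeR 4.0.16 (intercept only, TMM, filterByExpr). The default prior weight, tried first, pulled a raised BCV strongly to the trend when tested on simulated data, so the prior was set to 1 degree of freedom. With it, 198 genes drawn with a BCV of 0.2 gave a median of 0.152 and 8624 genes drawn with 0.05 gave 0.0458.

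Per-library values were given for the 20 highest members and the genes of 18 pairs, other detected members by mean, and the 3 highest and each undetected gene of every surrounding group; Mmp8 and Adamts17 were added after their values were seen. Figures and statistics used Python 3.11.15, numpy 2.4.6 and matplotlib 3.10.9. Alternatives covered thresholds, pseudocounts, named transcripts, filters, scaling and leaving out each replicate.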

Additional observations from a re-analysis of the deposited data

Results flagged for a closer look

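A library was singled out where its gap to the nearest other library, divided by the whole range of the 5, exceeded 0.71, Dixon's 95% critical value. Chance alone does this in about 1 of 20 groups of values. Of the 16 cases below, 14 were replicate 1. Mmp2 was at 461 TPM there, against 357 to 367 TPM in the other libraries. Mmp14 was at 326 TPM, against 262 to 271 TPM. Adamts17 was at 1.86 TPM, against 2.62 to 2.84 TPM. The MMP sum was at 1268 TPM, against 1095 to 1141 TPM. The MMP share of the family's TPM was 41.4% there and the TIMP share 51.5%, and the log2 ratio of TIMP over MMP sums was 0.32. In 4 of the 18 gene pairs the log2 ratio of replicate 1 stood apart: Timp2 over Mmp2 at 0.65, Timp2 over Mmp14 at 1.15, Mmp14 over Mmp15 at 1.36 and Adamts1 over Adamts5 at 1.21. These ratios and shares reuse the same gene values, so they are not separate cases. Among the 35 surrounding genes, replicate 1 stood apart for Plg at 0.132 TPM, Cd44 at 236.6 TPM and Cd63 at 3351 TPM, replicate 2 for Plau at 27.1 TPM and replicate 4 for Adam17 at 68.04 TPM.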

How the results depend on the processing

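No paired analysis was possible because all libraries belong to 1 group. Of 184 alternative values 167 kept their direction and stayed close, 15 moved and 2 reversed, and none of the 115 from leaving out 1 replicate reversed. A ratio counted as close when it shifted by at most its SD over libraries. Leaving out 1 of 5 libraries cannot shift a mean further than that. Nor can it reverse a ratio that has the same direction in every library. The leave-one-out ratios are therefore no check on stability. Of the 69 other alternatives, 53 kept their direction and stayed close. The number of detected members was 30 to 38 under every alternative tried. With the median of detected members in place of the sum, log2 ratios were 5.59 for TIMP over MMP, 0.57 for MMP over ADAMTS and, reversed, -0.35 for ADAMTS over ADAMTS-like genes. With named transcripts alone, they were 0.33 for TIMP over MMP, 3.00 for MMP over ADAMTS, 9.54 for Timp2 over Timp3, -9.36 for Timp3 over Timp1 and, reversed, -0.41 for Timp3 over Timp4. These 3 gene ratios rest on Timp3, of which named transcripts hold 0.408%. Adamts2 over Adamts3 had no value there. With a pseudocount of 1, they were 6.93 for Timp3 over Timp4, 6.99 for Mmp2 over Mmp9, 7.96 for Mmp2 over Mmp3, 3.46 for Mmp15 over Mmp16, -1.69 for Mmp9 over Mmp12, 2.17 for Adamts2 over Adamts3, 2.82 for Adamts10 over Adamts6 and 1.96 for Adamtsl1 over Adamtsl3. The median BCV of members ranged from 0.0435 (without replicate 1) to 0.0841 (without replicate 3), and was 0.0692 with the default prior weight of edgeR, which was tried first; the prior used, and so the default as its alternative, was chosen after seeing the data. Low counts limit Timp4, Mmp9 and Mmp3, and members without named transcripts have no reads behind their TPM here.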
